A study of Mus musculus with 16 samples.

Results

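The sarcomere genes described here are Ttn, Neb, Actn2, Actn3, Myoz1, Myot, Ldb3, Des and Flnc, which encode titin, nebulin and proteins of the Z-disc. They were listed by name, with earlier results of these data known, and all 9 are among the 11710 genes of the deposited count table and passed the filter on low counts. RNA was sequenced from rotator cuff muscle of unoperated C57BL/6J mice (BL6 below), C57BL/6J mice after tenectomy with denervation, unoperated MRL/MpJ mice (MRL below) and MRL/MpJ mice after the same surgery, with 4 samples in each of the 4 groups. Both are inbred strains, one a common laboratory reference and the other known for unusual healing of ear wounds, and the comparison asks whether their muscles respond differently to a rotator cuff tear. The sample labels name the supraspinatus and the series design names the infraspinatus. Age, sex and the time from surgery to collection are not given in the sources used here. Nothing says that the samples of a group came from separate animals, so each p-value below measures only the spread between these samples.

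In striated muscle the Z-disc is the plate where thin filaments of neighbouring sarcomeres are crosslinked by alpha-actinin. Titin, a very large protein, runs as a spring from the Z-disc to the M-band. Nebulin lies along the thin filament and sets its length and stability. Loss of nerve input and of tendon load makes a muscle waste, with a loss of sarcomeres.

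The lengths of the transcripts matter for what follows. In the GENCODE M21 annotation (GRCm38), Ttn lies on chromosome 2 from 76703980 to 76982547 on the minus strand and its longest transcript has 106824 bases. Neb lies on the same chromosome from 52136647 to 52378474, also on the minus strand, with a longest transcript of 22489 bases. The other longest transcripts have 9038 bases for Flnc (chromosome 6, 29433256 to 29461883), 5119 for Ldb3 (chromosome 14, 34526603 to 34588682), 3028 for Des (chromosome 1, 75360329 to 75368579), 3013 for Actn2 (chromosome 13, 12269426 to 12340760), 2887 for Actn3 (chromosome 19, 4861216 to 4877909), 2209 for Myot (chromosome 18) and 1289 for Myoz1 (chromosome 14, 20649107 to 20656540). Actn2 and Actn3 are close relatives, but only 2 of the 2964 stretches of 50 bases in the longest Actn2 transcript also occur in Actn3, so reads of the pair can be told apart. Des shares 220 bases, 5.86% of its exons, with the antisense gene Gm15179, and it is not stated whether counting used strand.

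Promoter windows of 250 bases before the RefSeq start (GRCm38.p6) were at hand for 5 of the 9 genes. Those of Ttn and Actn2 are shown because after surgery in BL6 Ttn fell and Actn2 rose. A window of Ldb3 is shown because its change did not pass the test in either strain. Capitals mark matches to the motifs searched on both strands, which were CANNTG (the E-box), the MEF2 site, the CArG box, CATTCC and TATAAA. No match overlapped another in these windows.

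Ttn, chr2:76982548-76982797, minus strand: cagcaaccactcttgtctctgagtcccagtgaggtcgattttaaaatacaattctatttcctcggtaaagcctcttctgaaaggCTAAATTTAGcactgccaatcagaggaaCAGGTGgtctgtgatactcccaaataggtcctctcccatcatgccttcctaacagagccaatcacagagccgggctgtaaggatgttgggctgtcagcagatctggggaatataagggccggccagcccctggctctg

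Actn2, chr13:12340733-12340982, minus strand: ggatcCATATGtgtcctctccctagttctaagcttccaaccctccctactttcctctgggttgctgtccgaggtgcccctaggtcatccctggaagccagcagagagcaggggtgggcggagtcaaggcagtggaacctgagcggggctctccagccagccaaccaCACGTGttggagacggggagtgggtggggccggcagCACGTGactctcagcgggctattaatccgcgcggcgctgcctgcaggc

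Ldb3, chr14:34588682-34588931, minus strand: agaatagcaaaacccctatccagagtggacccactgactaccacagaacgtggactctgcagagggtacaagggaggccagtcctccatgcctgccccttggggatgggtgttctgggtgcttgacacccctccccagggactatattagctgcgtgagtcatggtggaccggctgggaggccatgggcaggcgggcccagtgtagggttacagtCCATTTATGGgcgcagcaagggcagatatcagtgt

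The Ttn window held 1 MEF2 site starting 166 bases before the start and 1 CANNTG match starting 138 bases before it. In the Actn2 window 3 CANNTG matches began 245, 84 and 48 bases before the start. A CArG box began 35 bases before the start of the Ldb3 window shown. Another Ldb3 window, before a different RefSeq start, held the same box 109 bases before that start. Of 32851 mouse windows of the same length, 66.2% held CANNTG, 2.92% a MEF2 site, 1.47% a CArG box, 12.6% CATTCC and 12.4% TATAAA. A match describes letters and is no evidence of binding.

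After surgery titin and nebulin fell in BL6, the alpha-actinins changed in opposite directions in both strains, and desmin, filamin C and Ldb3 did not pass the test in either. Tests are edgeR quasi-likelihood tests on all 16 samples, with Benjamini-Hochberg adjustment over all 11709 genes tested and a call at an adjusted p under 0.05, and levels are counts per 1000000 counts of the sample (CPM), scaled by TMM factors. In BL6, 67.9% of all genes were called (35.1% higher, 32.8% lower), and of the 9 genes 1 rose (Actn2), 4 fell (Ttn, Neb, Actn3 and Myot) and 4 were not called. In MRL, 45% of all genes were called (22.3% higher, 22.7% lower), and 1 of the 9 rose (Actn2), 1 fell (Actn3) and 7 were not called. Both counts of called genes among the 9 lie below the share called over all genes. The deposited table held no gene with a mean under 1.05 CPM (not TMM-scaled), so shares over all genes cover expressed genes only. The median log2 fold change of the 9 was -0.21 in BL6 and -0.11 in MRL, beside 0.041 and 0.0072 over all genes tested.

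**Figure D1:**
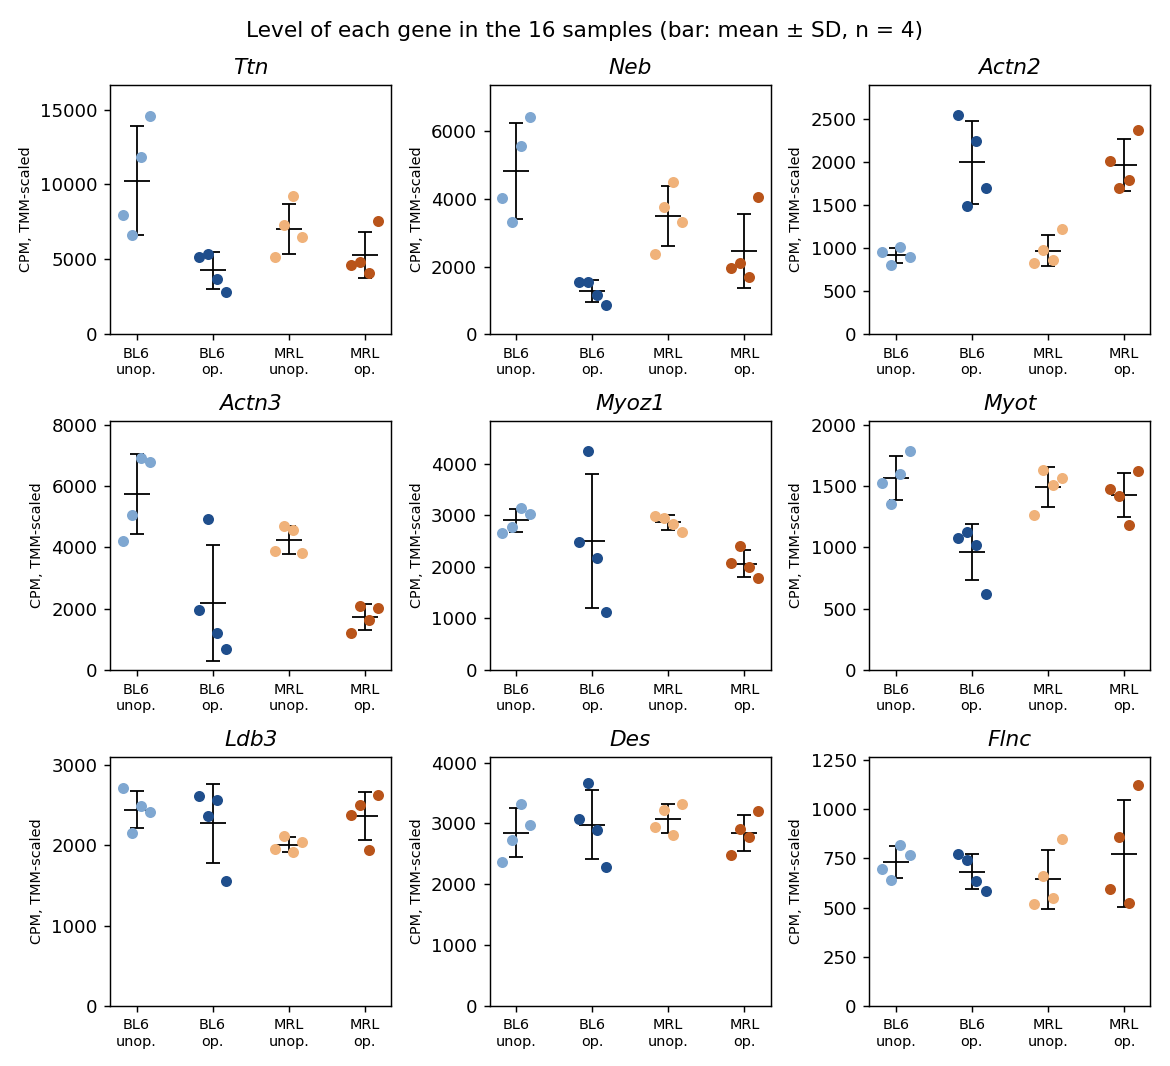
CPM (TMM-scaled, linear axes from 0) of the 9 genes in the 16 samples, with 1 point per sample and a bar for the mean ± SD of the 4 samples of each group (unop., unoperated; op., operated). Operated BL6 samples lie below all unoperated BL6 samples for Ttn, Neb and Myot, and operated samples of both strains lie above all unoperated ones for Actn2.

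The cell type markers of the samples changed with surgery. Summed muscle fibre markers (Acta1, Ckm, Mb, Tnnt3, Myh1, Myh4 and Pvalb) were the highest of the 9 marker lists in every sample. They ranged from 117500 to 155600 CPM in unoperated BL6 and from 50350 to 138100 CPM in operated BL6, and in MRL from 107200 to 120900 and from 69340 to 92160 CPM. Adipocyte markers, 4 of 5 of them in the table, ranged from 208 to 279 CPM in unoperated and from 1209 to 1656 CPM in operated BL6, and from 263 to 369 and from 1086 to 1902 CPM in MRL. Schwann cell markers ranged from 60.6 to 85.2 CPM in unoperated and from 168 to 438 CPM in operated BL6, and from 54.9 to 98.7 and from 94.0 to 265 CPM in MRL. Endothelial markers (271 to 358, then 549 to 705 CPM in BL6, and 207 to 276, then 285 to 683 CPM in MRL) and smooth muscle and pericyte markers (407 to 485, then 760 to 1201 CPM in BL6, and 337 to 463, then 628 to 1169 CPM in MRL) were higher in every operated sample than in any unoperated one of the same strain, as were adipocyte markers, while Schwann cell sums overlapped in MRL. Fibroblast markers (535 to 1287, then 748 to 5157 CPM in BL6, and 1110 to 1907, then 1413 to 2850 CPM in MRL) and macrophage markers (19.3 to 43.1, then 33.4 to 203 CPM in BL6, and 33.3 to 117, then 50.5 to 94.5 CPM in MRL) overlapped between the groups. Satellite cell markers (2 of 3 in the table) ranged from 26.09 to 30.84 CPM in unoperated and from 14.96 to 20.9 CPM in operated BL6. In MRL their ranges of 19.35 to 23.13 and 15.63 to 23.35 CPM overlapped. Erythroid markers overlapped in both strains. In bulk muscle, fewer fibres and less RNA per fibre cannot be told apart, and the part of composition in the changes of the 9 genes was not tested.

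Ttn, the elastic filament and the most abundant of the 9 by counts in every group, was at 7963, 6610, 11851 and 14551 CPM in unoperated BL6 replicates 1 to 4. In operated BL6 the values were 5141, 5375, 3713 and 2805 CPM. Every operated sample lay below every unoperated one, and the level was 41.6% of the unoperated one (log2 fold change -1.27 ± 0.29 SE, adjusted p = 0.00145, edgeR). MRL samples overlapped: unoperated replicates were at 5180, 7278, 9201 and 6492 CPM and operated ones at 4647, 4830, 4072 and 7548 CPM. The MRL change was -0.42 ± 0.29 on the log2 scale (95% interval -1.02 to 0.19, adjusted p = 0.24, edgeR).

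Neb, the thin-filament ruler, fell in BL6 and was not called in MRL. Unoperated BL6 replicates 1 to 4 were at 4038, 3309, 5555 and 6429 CPM, and operated ones at 1544, 1536, 1144 and 869 CPM. The groups were far apart, with 26.3% of the unoperated level left (log2 fold change -1.93 ± 0.31 SE, adjusted p = 0.000107, edgeR). In MRL the unoperated values were 2376, 3765, 4508 and 3334 CPM and the operated values 1963, 2099, 1679 and 4069 CPM, so that 3 operated samples lay below every unoperated one and replicate 4 lay among them. This change was -0.51 ± 0.30 (95% interval -1.15 to 0.13, adjusted p = 0.171, edgeR).

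The MRL values of Ttn and Neb depended on single libraries. Operated MRL replicate 4 had 11.8% of its counts from the 13 mitochondrial genes, against 20.1% to 24.9% in the other operated MRL samples and 11.0% to 11.6% in unoperated MRL. Without it Neb fell in MRL by 0.87 on the log2 scale (adjusted p = 0.014, edgeR) and the Ttn value was -0.64 (adjusted p = 0.0733). Without unoperated MRL replicate 3 instead, the values were -0.36 for Neb (adjusted p = 0.386, edgeR) and -0.26 for Ttn (adjusted p = 0.517). Of the 16 fits that leave out 1 sample, 1 called Neb in MRL and 0 called Ttn. Operated BL6 replicate 4, with summed fibroblast markers (Pdgfra, Col1a1, Col3a1, Dcn and Lum) of 5157 CPM against 748 to 1429 in the other operated BL6 samples, and unoperated MRL replicate 1, with summed macrophage markers of 117 CPM against 33.3 to 38.2 in the rest of its group, also stood apart. All 3 libraries were then left out together, a choice made after seeing the data and by no set rule. In MRL Neb then fell by 1.03 (adjusted p = 0.00148, edgeR) and Ttn by 0.77 (adjusted p = 0.0184), and 4 of the 9 genes were called. In BL6 the same setting gave -1.81 for Neb and -1.14 for Ttn, and both were again called. Operated MRL replicate 3 was kept in that setting, with summed erythroid markers of 5400 CPM against 671 to 980 in the rest of its group. Leaving out that sample alone gave -0.37 for Neb (adjusted p = 0.378, edgeR) and -0.31 for Ttn (adjusted p = 0.452) in MRL.

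**Figure D2:**
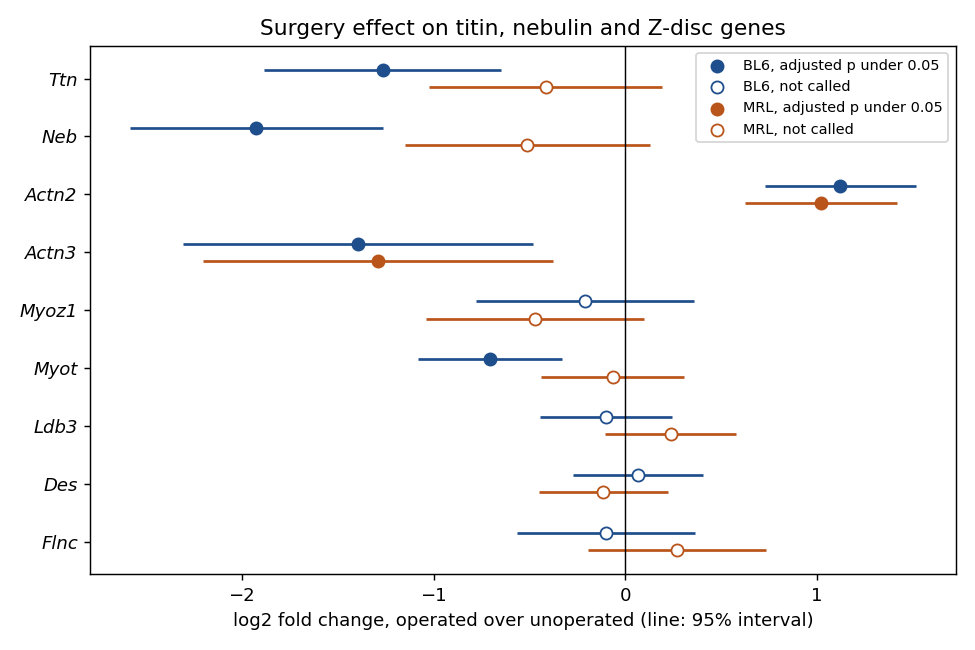
Log2 fold change of operated over unoperated muscle for the 9 genes in BL6 (blue) and MRL (orange), with 95% intervals from edgeR; filled points passed an adjusted p under 0.05. Neb and Ttn lie farther below 0 in BL6 than in MRL, while the Actn2 and Actn3 points of the strains lie close together.

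Fold changes across the whole table fell with transcript length, and Ttn and Neb are at its far end. In BL6 the median log2 fold change was 0.71 over 522 genes with a longest transcript under 1 kb and -0.43 over 295 genes of at least 10 kb, the 9 genes left out. In MRL the same medians were 0.38 and -0.17. Of the 295 long genes, 29 had a lower log2 fold change than Ttn in BL6 and 3 had a lower one than Neb. In MRL 84 of them had a lower one than Ttn and 58 a lower one than Neb. When a smooth trend on transcript length was removed from each sample, Ttn fell in BL6 by 0.45 (adjusted p = 0.0494, edgeR). Neb kept its call, with a fall of 1.25 (adjusted p = 0.000401). The MRL values with the trend removed were -0.13 for Ttn (adjusted p = 0.587) and -0.29 for Neb (adjusted p = 0.315), and neither was called. The trend was fitted over all tested genes, the 9 included. The 295 long genes had a median length of 11699 bases, so the trend was little constrained at the lengths of Ttn and Neb. The long transcripts stood 0.218 ± 0.081 above their mean over all samples (log2, SD, n = 4) in unoperated BL6 and at -0.239 ± 0.067 in operated BL6, with 0.078 ± 0.146 and -0.077 ± 0.116 in MRL. In operated MRL replicate 4 this median was 0.094, against -0.162 to -0.110 in the other 3. The part of RNA quality or library preparation in these values was not tested.

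**Figure D3:**
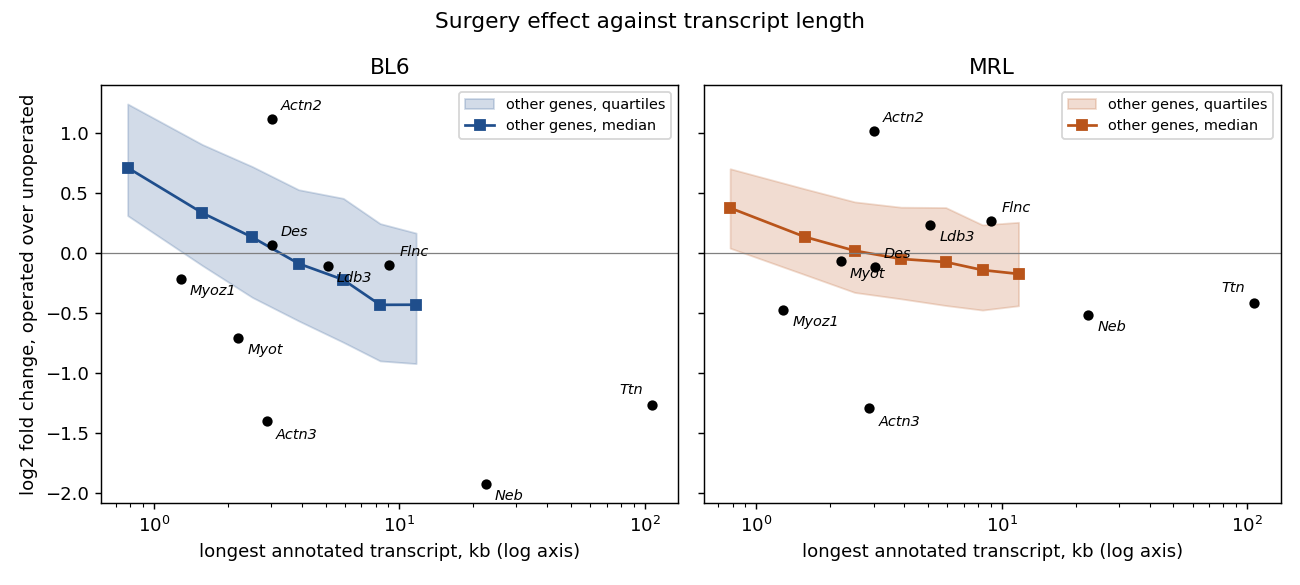
Log2 fold change after surgery against the longest annotated transcript (kb, log axis) in BL6 and MRL. Squares are medians of all other tested genes in 7 length classes and the band spans their quartiles; black points are the 9 genes, with Ttn and Neb to the right of the last class.

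Within each library the ratio of Ttn to Neb counts does not depend on scaling. It was 1.97, 2.0, 2.13 and 2.26 in unoperated BL6 and 3.33, 3.50, 3.25 and 3.23 in operated BL6. All operated BL6 samples lay above all unoperated ones, a log2 difference of 0.67 (two-sided exact permutation test, p = 0.0286, the smallest that 4 against 4 samples can give, and 0.0571 after adjustment over 8 ratio tests). Unoperated MRL samples had ratios of 2.18, 1.93, 2.04 and 1.95 and operated ones 2.37, 2.30, 2.43 and 1.86, where replicate 4 was again the low one. The MRL difference was 0.14 (exact p = 0.2, adjusted 0.267). Operated MRL samples all lay below operated BL6 samples (log2 difference -0.58, exact p = 0.0286, adjusted 0.0571).

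Alpha-actinin is the crosslinker of thin filaments at the Z-disc, and its muscle forms are Actn2, present in all fibres, and Actn3, the form of fast fibres. Actn2 stood at 959, 805, 1014 and 896 CPM in unoperated BL6 replicates 1 to 4, and at 2549, 1488, 2251 and 1706 CPM in operated BL6. MRL values went from 830, 976, 858 and 1221 CPM to 2014, 1701, 1789 and 2373 CPM. Operated samples of both strains lay above all unoperated ones. Actn2 rose 2.18-fold in BL6 (log2 1.12 ± 0.19 SE, adjusted p = 0.00013, edgeR). In MRL it rose 2.03-fold (log2 1.02 ± 0.19, adjusted p = 0.00143, edgeR), and both calls held whichever single sample was left out.

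Actn3 went the other way. Unoperated BL6 replicates 1 to 4 were at 4222, 5067, 6904 and 6770 CPM, and operated ones at 1941, 4915, 1190 and 690 CPM. The groups overlapped through operated BL6 replicate 2 alone, which also had the highest summed fibre markers of its group (138100 CPM, against 50350 to 90910 in the rest). The BL6 level fell to 38.1% (log2 -1.39 ± 0.43 SE, adjusted p = 0.00981, edgeR). Without that replicate the fall was 2.17 on the log2 scale (adjusted p = 5.41e-05, edgeR). Without operated BL6 replicate 4, the lowest of its group, it was 1.11 (adjusted p = 0.0167, edgeR). The BL6 call held in all 16 fits that leave out 1 sample. Unoperated MRL samples were at 3881, 4691, 4555 and 3822 CPM and operated ones at 1190, 2085, 1624 and 2031 CPM, with no overlap. The MRL level fell to 40.9% (log2 -1.29 ± 0.43 SE, adjusted p = 0.0243, edgeR), a call lost in 4 of the 16 fits that leave out 1 sample (highest adjusted p = 0.0712, without operated MRL replicate 1).

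The balance of the pair differed between operated and unoperated muscle. The ratio of Actn3 to Actn2 counts was 4.4, 6.29, 6.81 and 7.55 in unoperated BL6 and 0.761, 3.30, 0.529 and 0.405 in operated BL6. In MRL it was 4.68, 4.81, 5.31 and 3.13 in unoperated and 0.591, 1.23, 0.908 and 0.856 in operated samples. Operated samples lay below all unoperated samples in each strain. The log2 difference was -2.84 in BL6 and -2.34 in MRL (two-sided exact permutation test, p = 0.0286 in each, adjusted 0.0571). The strains' ratios overlapped in unoperated muscle (difference -0.48, exact p = 0.114) and in operated muscle (0.016, exact p = 1).

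**Figure D4:**
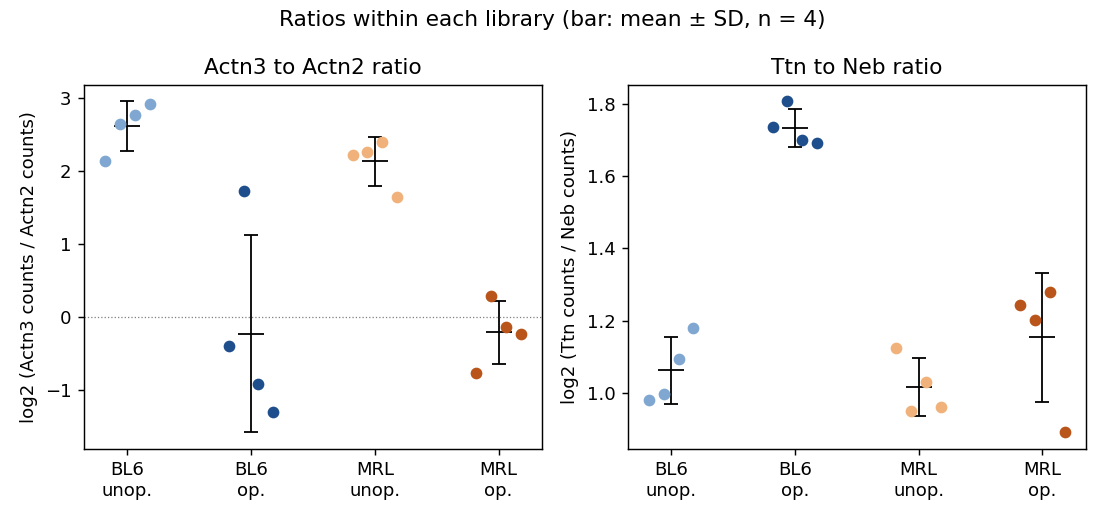
Log2 ratio of Actn3 to Actn2 counts (left) and of Ttn to Neb counts (right) in each sample, with a bar for the mean ± SD of 4 samples per group (unop., unoperated; op., operated). The Actn3 to Actn2 ratio falls from means of 2.62 and 2.14 to -0.22 and -0.21, and the Ttn to Neb ratio in operated BL6, at a mean of 1.73, does not overlap any other group.

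Myoz1, a fast-fibre protein that ties alpha-actinin to the phosphatase calcineurin, was not called in either strain. It ranged from 2666 to 3137 CPM in unoperated BL6, and operated BL6 replicates 1 to 4 were at 2490, 4242, 2175 and 1122 CPM, so that replicate 2 was the highest and replicate 4 the lowest of all samples. The BL6 value was -0.21 (95% interval -0.78 to 0.36, adjusted p = 0.496, edgeR). Without operated BL6 replicate 2 it fell by 0.59 (adjusted p = 0.0222, edgeR), and without operated BL6 replicate 4 the value was 0.026 (adjusted p = 0.911). In MRL all operated samples (1782 to 2407 CPM) lay below all unoperated ones (2679 to 2993 CPM), but the value of -0.47 was not called (95% interval -1.04 to 0.097, adjusted p = 0.157, edgeR). With the length trend removed Myoz1 was called lower in both strains (-0.67 in BL6, adjusted p = 0.029, and -0.69 in MRL, adjusted p = 0.036), and it was also called in MRL from the MRL samples alone (adjusted p = 0.0192). Of the 11 alternative settings, 2 called it in BL6 and 3 in MRL. In each strain 1 of the 16 fits that leave out 1 sample did. In the authors' deposited table the MRL false discovery rate of Myoz1 was 0.0487, with a log2 fold change of -0.64.

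Myot encodes myotilin, which binds alpha-actinin and filamin C and bundles actin. It was at 1522, 1356, 1600 and 1788 CPM in unoperated BL6 and at 1076, 1122, 1021 and 622 CPM in operated BL6, with no overlap. Its BL6 level fell to 61.3% (log2 -0.71 ± 0.18 SE, adjusted p = 0.00263, edgeR). MRL samples overlapped, at 1263, 1633, 1509 and 1564 CPM unoperated and 1471, 1421, 1184 and 1622 CPM operated. The MRL value was -0.067 (95% interval -0.44 to 0.31, adjusted p = 0.768, edgeR).

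Ldb3, a PDZ and LIM domain protein also called ZASP or Cypher that binds alpha-actinin, ranged from 2150 to 2712 CPM in unoperated and from 1560 to 2610 CPM in operated BL6. In MRL the ranges were 1919 to 2117 CPM and 1948 to 2631 CPM. Neither change was called (-0.10, 95% interval -0.45 to 0.24, in BL6 and 0.24, -0.11 to 0.58, in MRL). Des, the muscle intermediate filament that links Z-discs to each other and to the membrane, ranged from 2365 to 3316 CPM in unoperated and from 2276 to 3658 CPM in operated BL6, and from 2811 to 3326 and 2484 to 3200 CPM in MRL. Its log2 values were 0.066 (-0.27 to 0.40) and -0.11 (-0.45 to 0.22). Flnc, an actin crosslinker of Z-discs and muscle attachment sites, had ranges of 641 to 821 and 586 to 771 CPM in BL6, and of 517 to 847 and 525 to 1122 CPM in MRL. The values of -0.099 (-0.56 to 0.36) and 0.27 (-0.19 to 0.73) were not called. The widest of these intervals, those of Flnc, reach -0.56 in BL6 and 0.73 in MRL.

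No strain difference in the response passed the test for any of the 9. The interaction, the MRL change minus the BL6 change, was called for 29 genes of the table (0.248%; 0.154% higher, 0.0939% lower), and for none of the 9 with edgeR or limma-voom. Neb and Myot had an unadjusted p under 0.05, as did 15.7% of all genes, and DESeq2 called Neb alone (log2 1.39, adjusted p = 0.0427). With edgeR the interaction was 1.41 ± 0.43 SE for Neb (95% interval 0.51 to 2.32, adjusted p = 0.169), 0.85 ± 0.41 for Ttn (-0.012 to 1.71, adjusted p = 0.321) and 0.64 ± 0.25 for Myot (0.11 to 1.17, adjusted p = 0.248). Over the 10 alternative settings the Neb interaction ran from 0.78 to 1.41 (adjusted p from 0.0427 to 0.393) and that of Ttn from 0.30 to 0.85 (adjusted p from 0.252 to 0.744). With the length trend removed they were 0.96 and 0.32, and without the 3 libraries that stood apart 0.78 and 0.37. For Actn2 the difference was -0.10 (-0.65 to 0.45) and for Actn3 0.10 (-1.17 to 1.37), so the Actn3 interval spans large differences either way. Between the unoperated strains 10.4% of all genes were called (5.02% higher and 5.36% lower in MRL) and none of the 9 with edgeR, limma-voom or DESeq2, and none had an unadjusted p under 0.05. The fit on unoperated samples alone called 1, Ldb3, lower in MRL (adjusted p = 0.0478, edgeR).

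In operated muscle 12.9% of all genes tested were called between the strains (7.6% higher and 5.27% lower in MRL), and 1 of the 9 was called. Myot was 1.48-fold higher in MRL (log2 0.57 ± 0.18 SE, adjusted p = 0.0449, edgeR), with all MRL samples above all BL6 samples. The call was fragile: it was kept in 3 of the 16 fits that leave out 1 sample (adjusted p from 0.0281 to 0.0988) and in 6 of 11 other settings. The authors' deposited table gives it a false discovery rate of 0.0452. Neb, also with all operated MRL samples above all operated BL6 samples, was 1.93-fold higher (log2 0.95 ± 0.30, 95% interval 0.30 to 1.59) and just missed the call (adjusted p = 0.0513, edgeR). Without operated MRL replicate 4 the Neb value was 0.58 (adjusted p = 0.188), and 0.45 (adjusted p = 0.202) without the 3 libraries named above.

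Levels of different genes can be set side by side only per length, here as CPM per kb of annotated exons. In unoperated BL6 the order was Actn3 at 1979, Myoz1 at 1534, Des at 758, Myot at 709, Ldb3 at 400.2, Actn2 at 242, Neb at 182, Ttn at 87.7 and Flnc at 77.9 CPM per kb. Ranges over the 4 samples overlapped between Actn3 and Myoz1, Des and Myot, Actn2 and Neb, Neb and Ttn, and Ttn and Flnc, and were separate at the other steps. Ttn thus had the most counts of the 9 and nearly the lowest level per kb. In operated BL6 the order was Myoz1 at 1325, Des at 793, Actn3 at 753, Actn2 at 527, Myot at 435, Ldb3 at 373, Flnc at 72.7, Neb at 47.9 and Ttn at 36.5 CPM per kb, and among neighbours only Ldb3 and Flnc, and Flnc and Neb, did not overlap. The unoperated MRL order began with Myoz1 at 1514 and Actn3 at 1461 and ended with Flnc at 68.4 and Ttn at 60.2 CPM per kb. In operated MRL, Actn3 stood at 597, behind Myoz1 at 1091, Des at 757 and Myot at 645, with Actn2 next at 519 CPM per kb. The range of Actn3 over the 4 operated MRL samples (410 to 719) took in both Myot's mean and Actn2's. The order depends on the length used. Per kb of the longest transcript, Myoz1 (2251) lay above Actn3 (1989) in unoperated BL6, Ldb3 (445) above Myot (435) in operated BL6, and Actn2 (654) above Myot (645) and Actn3 (600.2) in operated MRL. Even coverage along a transcript is assumed in these values and was not tested.

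Across the 16 samples the 9 genes did not vary as a block. Ttn and Neb levels (log2 CPM) had a Pearson r of 0.954, Neb and Myot of 0.883, and Actn3 and Myoz1 of 0.854, while Actn2 and Actn3 had -0.782. These values are descriptions, since the samples share groups and the 2 longest transcripts share the length trend. By the same measure the genes outside the 9 most like Neb were Dmd (0.989), Spag9 (0.98) and Ubr3 (0.978), and those most like Ttn were Ryr1 (0.971), Fyco1 (0.961) and Myo18b (0.961). Nearest to Actn3 were Mybpc2 (0.991), Pygm (0.975) and Mettl22 (0.972), to Myoz1 Pvalb (0.963), Rtn2 (0.96) and 2310002L09Rik (0.955), and to Myot Idh3a (0.946), Phyh (0.945) and Btbd1 (0.937). Actn2 was followed most closely by Zfp697 (0.939), Ephb1 (0.934) and Hspb7 (0.927). The values were lower for Ldb3 (Mdh1 at 0.756, Ndufv1 at 0.732, Mdh2 at 0.717), Des (Ptp4a3 at 0.866, Macrod1 at 0.833, A530013C23Rik at 0.828) and Flnc (Klhl40 at 0.884, Abra at 0.726, P2rx5 at 0.721).

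Partners of the same structures changed in both directions after surgery. Of 20 further Z-disc genes, 5 rose and 10 fell in BL6, and 3 rose and 6 fell in MRL. These are 75% and 45% of the list, near the 67.9% and 45% called over all genes, and the counts show nothing particular to it. Their median log2 fold changes were -0.36 and -0.27, beside 0.041 and 0.0072 over all genes tested. In both strains 2 of these rose and 4 fell. Csrp3, the muscle LIM protein of the Z-disc, rose from 30.1 ± 7.49 to 128 ± 34.9 CPM in BL6 and from 59.0 ± 35.0 to 124 ± 32.5 CPM in MRL (SD, n = 4). Cryab, a small heat shock protein that binds desmin, rose from 1120 ± 141 to 3143 ± 533 CPM and from 717 ± 93.4 to 2124 ± 396 CPM. Nexn, an actin-binding Z-disc protein, fell from 421 ± 44.1 to 142 ± 41.2 CPM in BL6 and from 312 ± 30.3 to 186 ± 29.4 CPM in MRL. Capza2 and Capzb, subunits of the protein that caps the thin filament at the Z-disc, fell with log2 fold changes of -1.05 and -0.40 in BL6 and of -0.80 and -0.37 in MRL. Synpo2, an actin-bundling Z-disc protein that binds filamin C, fell in both (-1.06 and -0.53). Among the genes of this list called in BL6, Myoz3, a relative of Myoz1, went from 60.6 ± 14.1 to 6.13 ± 0.852 CPM; it is named here after its values were seen, and its MRL change was not called (-1.01, adjusted p = 0.207, edgeR).

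Titin also carries signalling partners at its N2A region and the M-band. Of 12 such genes, 2 rose and 5 fell in BL6, and 2 rose and 2 fell in MRL, with medians of -0.32 in each (0.041 and 0.0072 over all genes). The 58.3% and 33.3% called lie below the 67.9% and 45% over all genes. Ankrd1, a stretch-responsive ankyrin repeat protein that binds N2A titin, rose from 13.6 ± 2.69 to 92.2 ± 42.5 CPM in BL6 and from 15.5 ± 3.14 to 261 ± 167 CPM in MRL (log2 2.76 ± 0.38 SE and 4.08 ± 0.40; adjusted p = 3.9e-05 and 6.01e-05, edgeR). Capn3, a protease anchored to titin, fell in both strains (log2 fold changes of -0.86 in BL6 and -0.57 in MRL), as did Trim55, a ring-finger protein of the M-band (-2.29 and -1.51). The nebulin relatives and thin-filament genes gave 1 higher and 4 lower in BL6 and 1 higher and 3 lower in MRL, of 9 tested (Nebl was not among the genes tested). The share called in BL6, 55.6%, lies below the 67.9% over all genes, and that in MRL, 44.4%, is near the 45% over all genes. The medians were -0.53 and -0.24. Acta1, the skeletal actin that nebulin lines and also 1 of the fibre markers, fell from 27680 ± 2093 to 13970 ± 3311 CPM in BL6 and from 23000 ± 2185 to 13560 ± 3790 CPM in MRL. Lmod3 and Tmod1, which act at the free end of the thin filament, fell with log2 fold changes of -0.75 and -0.91 in BL6 and of -0.57 and -0.81 in MRL. Actc1, the cardiac actin, rose from 227 ± 48.9 to 446 ± 209 CPM in BL6 and from 61.9 ± 15 to 145 ± 90.2 CPM in MRL.

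Of 4 intermediate filament and linker genes tested besides Des, 2 rose and 2 fell in BL6, and 1 rose and 1 fell in MRL, which is 100% and 50% of a short list beside 67.9% and 45% over all genes, with medians of -0.19 and 0.18. Synm, the synemin that copolymerises with desmin, fell from 709 ± 190 to 212 ± 108 CPM in BL6 and from 645 ± 143 to 335 ± 159 CPM in MRL, while Nes, the nestin of immature and junctional muscle, rose by 0.55 and 0.68 on the log2 scale. Actn1, Actn4 and Flna, relatives of alpha-actinin and filamin C that are widely expressed outside fibres, rose in both strains, where 35.1% (BL6) and 22.3% (MRL) of all genes rose. Actn1 went from 9.51 ± 2.27 to 24.9 ± 9.39 CPM in BL6 and from 11.0 ± 1.89 to 24.6 ± 6.38 CPM in MRL, Actn4 from 56.5 ± 9.75 to 140 ± 36.8 and from 58.8 ± 4.75 to 115 ± 28.4 CPM, and Flna from 86.0 ± 16.7 to 206 ± 76.8 and from 104 ± 25.8 to 182 ± 59.4 CPM. The endothelial and smooth muscle marker sums given above were higher in the operated samples of each strain, and their part in these values was not tested. In the interaction, edgeR, limma-voom and DESeq2 called no gene of these 5 lists, with 6 of 20 Z-disc partners, 2 of 12 titin partners, 0 of 9 nebulin relatives, 2 of 4 intermediate filament genes and 0 of 3 relatives outside fibres at an unadjusted p under 0.05 with edgeR. Over all genes tested 15.7% had such a p.

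**Figure D5:**
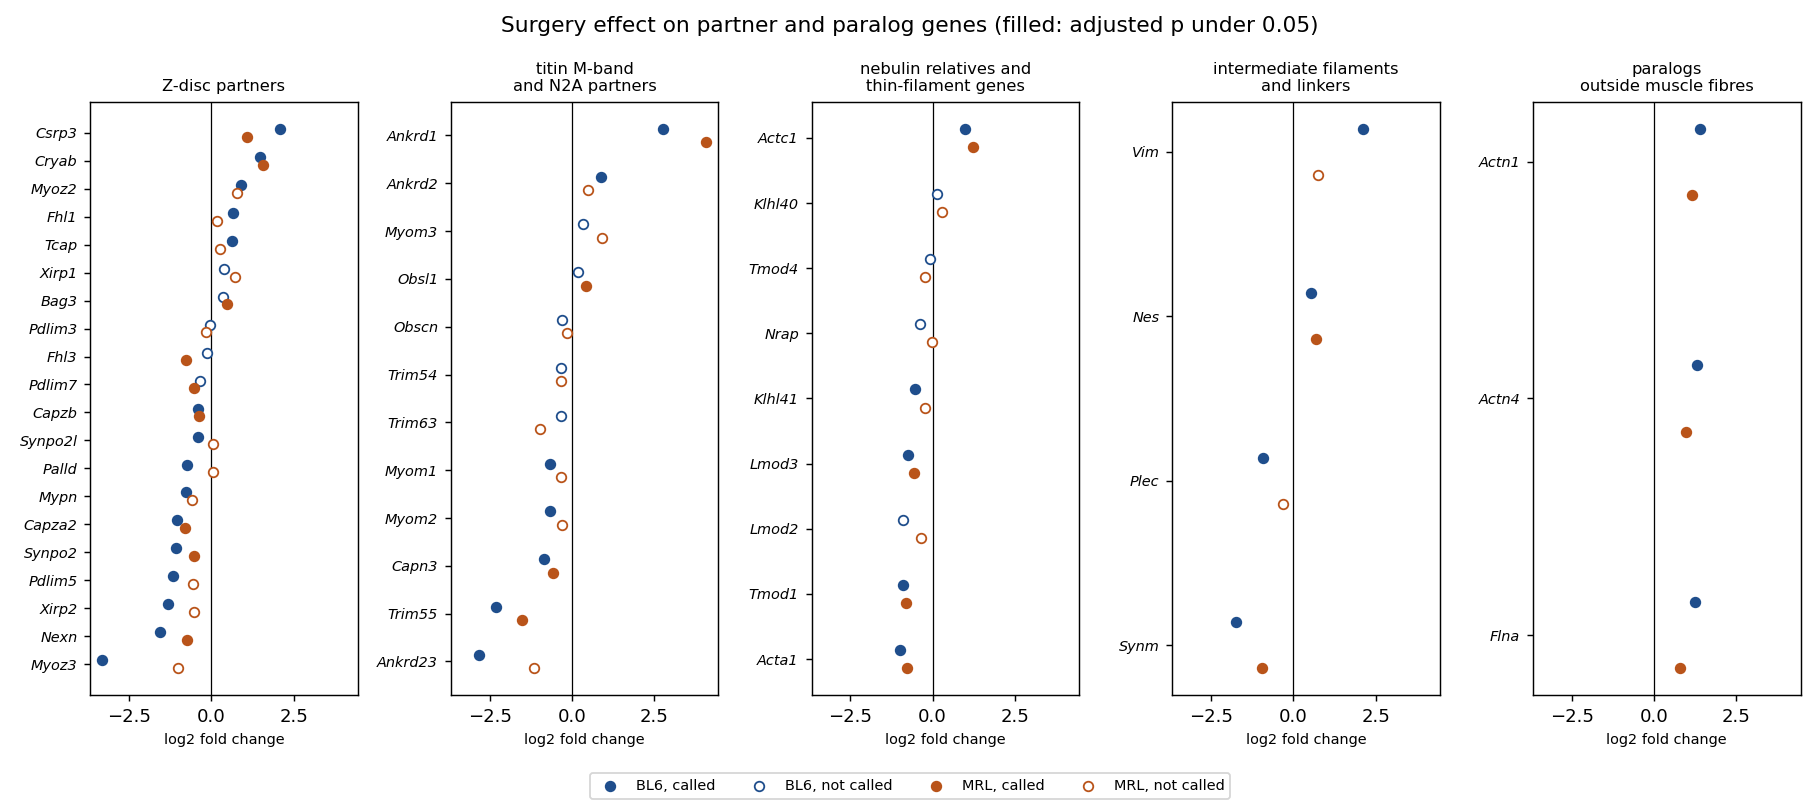
Log2 fold change after surgery of the tested genes in 5 lists, ordered by the BL6 value (blue, BL6; orange, MRL; filled, adjusted p under 0.05 with edgeR). Points lie on both sides of 0 in 4 lists, and the 3 relatives outside muscle fibres lie above 0 in both strains.

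Total counts ranged from 24323862 to 43552964 per sample and were lower after surgery in BL6 (26469749 to 31094642, against 33679319 to 43552964). The 9 genes together took 2.44% to 3.46% of counts in unoperated BL6, 1.56% to 2.11% in operated BL6, 2.33% to 2.94% in unoperated MRL and 1.90% to 2.99% in operated MRL. The lowest count of any of them in a sample was 14672 (Flnc in operated MRL replicate 1), and their precision was limited by the spread between samples. Beside the values given here, the authors' deposited table lists Ttn at -1.14 (false discovery rate 0.00195) and Neb at -1.78 (0.00012) after surgery in BL6 and at -0.56 (0.0827) and -0.66 (0.0539) in MRL.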

How the data were processed

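RNA was sequenced from 16 samples in 4 groups of 4, read from the strain and surgery fields of the labels. Per the submitters' processing notes FastQC, STAR and edgeR were used with the mm10 build; their versions, the counting program and the use of strand are not given in the sources used here. The authors deposited whole-number counts per gene, with no normalization. Their deposited comparison table holds log2 fold changes and p-values with false discovery rates.

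From the counts, R 4.3.3 with edgeR 4.0.16 was used: filterByExpr (minimum count 10, 11709 of 11710 genes kept), TMM factors, and a quasi-likelihood fit with 1 mean per group. Log2 CPM used a prior count of 2. Adjusted p-values are Benjamini-Hochberg over all genes tested. Fits with limma 3.58.1 (voom) and DESeq2 1.42.0 were alternatives. The test was also checked on simulated data, in which far fewer genes changed than were called here and no length trend was set. Log2 count ratios were compared by two-sided exact permutation tests. IDs were matched to GENCODE M21, 11708 of 11710. No pair of replicates agreed within sampling noise.

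1 gene of the lists is not reported here. The 9 genes and the gene lists were chosen with earlier results of these data known. Named beside the 9 genes are the 3 tested genes with the highest Pearson r to each, and the genes of each list called in both strains. The alternative leaving out 3 libraries was chosen after seeing the data.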

Additional observations from a re-analysis of the deposited data

Results flagged for a closer look

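Of 56 sets of 4 samples screened for a value far from the other 3, 2 stood out. For these 56 sets that is no more than the about 1 in 20 that chance would give. The summed cell type markers were not among the sets screened, so the count says nothing about libraries that stood apart by their markers. Unoperated BL6 replicate 1 had a total of 33679319 counts, against 42316407 to 43552964 in the other 3 samples of its group. In unoperated BL6 replicate 2 the 295 genes with transcripts of at least 10 kb stood at a median of 0.0974 above their mean over all samples (log2), against 0.244 to 0.267 in the other 3, and the same sample had the lowest Ttn (6610 CPM) and Neb (3309 CPM) values of its group. Without it the BL6 fall of Ttn was 1.43 on the log2 scale and that of Neb 2.07. Some marker sums, outside the screen, also lay far from the rest of their group. Macrophage markers were at 117 CPM in unoperated MRL replicate 1, against 33.3 to 38.2 CPM. Fibroblast markers were at 5157 CPM in operated BL6 replicate 4, against 748 to 1429 CPM. Erythroid markers were at 5400 CPM in operated MRL replicate 3, against 671 to 980 CPM.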

How the results depend on the processing

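Of the alternatives, transcript length and single libraries mattered most for the 9 genes. In BL6 the calls of Neb, Actn2, Actn3 and Myot held under all 11 alternative settings, with log2 fold changes of -1.95 to -1.22, 1.06 to 1.26, -1.72 to -1.14 and -0.87 to -0.57. The Ttn call held under 10 of 11 (-1.30 to -0.43) and was lost under the length offset with the replicate block (adjusted p = 0.0856, edgeR). In MRL Actn2 (0.84 to 1.08) and Actn3 (-1.43 to -1.23) held under all 11.

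Replicate numbers pair the samples only by name: deviations of same-numbered samples correlated at -0.474 to 0.452. With the replicate block 2 genes had a called interaction in place of 29, and none of the 9 was called between operated strains (Myot 0.57, adjusted p = 0.08), a count of 0. In the ratio tests the block cannot go below an exact p of 0.125, and it moved no other call of the 9. With the length offset alone 2 genes had a called interaction, and 1 with both. Ldb3 and Flnc changed sign in BL6 with the length offset (0.066 and 0.30) and with both (0.055 and 0.30), and between operated strains (-0.030 and -0.0068, then -0.020 and -0.050). With both, the Myoz1 interaction was 0.055, the Actn2 value between operated strains was 0.0019, and 0 of the 9 were called there.

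Library totals alone moved the median of all genes from 0.041 to 0.18 for surgery in BL6 and from 0.0070 to 0.15 between unoperated strains, and raised the share of calls that were higher from 51.7% to 60.2% there, from 48.4% to 70.3% between unoperated and from 59.1% to 72.2% between operated strains. That setting gave 14 interaction calls and turned Ldb3 (0.0022) and Flnc (0.024) in BL6, Myoz1 (0.13) and Myot (0.073) between unoperated strains, and Actn2 (0.042) and Des (0.029) between operated strains, where 2 of the 9 were called. DESeq2 gave 250 interaction calls, 1 of the 9 in the interaction and 2 of the 9 between operated strains. DESeq2's median-ratio factors within edgeR left 0 called there. Fits on only the groups compared gave 2438 genes and 1 of the 9 between unoperated strains, and 575 genes and 0 of the 9 between operated strains.

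Without the 3 libraries that stood apart there were 67 interaction calls, 4 of the 9 were called in MRL and 0 between operated strains. Signs turned for Ldb3 in BL6 (0.015), Flnc in MRL (-0.065), the Actn3 (-0.29) and Flnc (-0.0045) interactions, and Ttn (-0.059), Ldb3 (-0.13) and Flnc (-0.11) between operated strains.

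Leaving out 1 sample at a time gave 1 to 69 interaction calls (the highest without operated BL6 replicate 2), 3490 to 6145 calls for surgery in MRL, 1 to 3 of the 9 called in MRL and 0 to 2 between operated strains. Values that changed sign in such fits ran, for surgery in BL6, from -0.59 to 0.026 (Myoz1), -0.18 to 0.035 (Ldb3) and -0.048 to 0.17 (Des), and for surgery in MRL from -0.14 to 0.012 (Myot). Interactions ran from -0.22 to 0.037 (Actn2), -0.18 to 0.88 (Actn3) and -0.50 to 0.12 (Myoz1). Between unoperated strains they ran from -0.054 to 0.14 (Actn2) and -0.065 to 0.021 (Myoz1), and between operated strains from -0.14 to 0.12 (Actn2), -0.63 to 0.44 (Actn3), -0.52 to 0.098 (Myoz1), -0.086 to 0.14 (Ldb3), -0.17 to 0.047 (Des) and -0.061 to 0.33 (Flnc). The log2 Actn3 to Actn2 ratio difference ran from -0.64 to -0.32 between unoperated strains, where 1 such fit passed (adjusted exact p = 0.0457, without unoperated BL6 replicate 1), and from -0.34 to 0.67 between operated strains. The causes were not tested.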
